A study of Rattus norvegicus with 9 samples.

Results

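The genes described here are 9 transcription factors known from the mesenchyme of the developing skull and face: Alx4, Msx1, Msx2, Prrx1, Prrx2, Six2, Twist1, Twist2 and Foxc1. They were taken by gene symbol from a table of 19085 genes, each symbol stood on 1 gene, and all 9 were among the 13256 genes with enough counts to be tested. PolyA RNA was sequenced from primary osteoblasts of rats in 3 groups of 3 libraries. According to the growth protocol and the study's methods, the cells came from the calvaria of male Sprague-Dawley rats aged 24 hours. The calvaria is the roof of the skull. The tissue field of the labels instead says knee, and the titles of all 9 samples begin with KneeJoint. All groups were cultured for 7 days in osteogenic induction medium with β-glycerophosphate, ascorbic acid and dexamethasone. The control group had this medium alone, the thrombin group had thrombin at 20 U/mL, and the PD03 group had the same thrombin together with the MEK kinase inhibitor PD0325901 (PD03), at 0.1 μM in the methods and 0.1 mM in a protocol of the labels for short treatments. The methods call the 3 samples of a group independent, without saying whether they came from separate animals or cultures. The p-values weigh a group difference against the spread between such samples, estimated with information from all tested genes.

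Alx4, Msx1, Msx2, Prrx1, Prrx2 and Six2 carry a homeodomain, a DNA-binding fold shared by many regulators of body pattern. Msx1 and Msx2 act downstream of bone morphogenetic protein (BMP) signals in the skull, Alx4 acts in the frontonasal and parietal bones, Prrx1 and Prrx2 act in mesenchyme of face and limb, and Six2 acts in facial mesenchyme and kidney progenitors. Twist1 and Twist2 are basic helix-loop-helix proteins that hold back osteoblast maturation, and Foxc1 is a forkhead factor of the meninges and skull base. Most bone of the face and front of the skull descends from cranial neural crest, which lacks Hox expression at its foremost levels, whereas limb bones express posterior Hox genes. Several of the 9, among them Msx1, Msx2, Prrx1, Prrx2 and Twist1, are also made in limb bud mesenchyme, so their presence alone does not tell skull from limb.

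Promoters are printed for Msx2, the only factor called in a comparison, for its close relative Msx1, which was not called, and for Foxc1, whose thrombin and PD03 differences had the opposite signs to those of Msx2. Each is the 250 bases before the RefSeq gene start in rat assembly GRCr8, written 5′ to 3′ along the gene. Capitals mark matches on either strand to any of 5 motifs, namely AP-1 (TGANTCA), ETS (CCGGAA), a Twist-type E-box (CATNTG), a homeodomain core (TAATTN) and the CCAAT box (CCAAT). Msx2 lies at chr17:11102034-11102283 on the plus strand, Msx1 at chr14:77185552-77185801 on the plus strand and Foxc1 at chr17:32844101-32844350 on the minus strand.
Msx2: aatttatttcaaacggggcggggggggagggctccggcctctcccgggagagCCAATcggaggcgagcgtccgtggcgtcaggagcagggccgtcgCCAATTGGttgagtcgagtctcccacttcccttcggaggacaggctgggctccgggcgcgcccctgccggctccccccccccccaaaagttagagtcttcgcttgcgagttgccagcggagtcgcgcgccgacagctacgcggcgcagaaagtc
Msx1: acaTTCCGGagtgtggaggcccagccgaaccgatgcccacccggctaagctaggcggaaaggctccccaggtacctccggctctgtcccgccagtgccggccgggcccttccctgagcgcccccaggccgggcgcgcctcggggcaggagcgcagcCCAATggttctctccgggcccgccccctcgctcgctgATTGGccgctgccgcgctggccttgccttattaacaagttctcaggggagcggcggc
Foxc1: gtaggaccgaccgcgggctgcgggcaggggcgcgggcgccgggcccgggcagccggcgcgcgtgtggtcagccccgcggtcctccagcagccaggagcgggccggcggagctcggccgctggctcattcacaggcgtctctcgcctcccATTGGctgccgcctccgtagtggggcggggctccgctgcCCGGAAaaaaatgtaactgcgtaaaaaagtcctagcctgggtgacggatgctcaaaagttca
GC content was 67.6% for Msx2, 71.2% for Msx1 and 70.0% for Foxc1, against a median of 51.2% over all 33469 promoters of the same length. The Msx2 sequence held CCAAT boxes alone, of which a pair on opposite strands overlap, while Msx1 held CCAAT boxes and an ETS match, and Foxc1 a single CCAAT box and an ETS match. Of the 9 factors, 8 had an entry, all but Alx4. The CCAAT box stood in 6 of the 8, Msx1, Msx2, Prrx1, Twist1, Twist2 and Foxc1, and in 34% of all promoters. The ETS letters stood in 2 of the 8 (12.6% of all promoters), AP-1 in Six2 alone (6.34%), the E-box in Prrx2 alone (34.9%) and the homeodomain core in none (26.1%). A match describes these letters only.

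Total counts lay between 15447832 and 19841468 per library, and the 9 factors had 269 to 15711 counts in each library. Levels of different genes are compared by the deposited FPKM, which divides a count by library total and gene length, and levels of 1 gene across groups by CPM, the count scaled to a common library size by TMM. With library totals in place of TMM, the all-gene median for PD03 against control shifted by -0.12 on the log2 scale. Calls that were higher then made up 34.1% instead of 54.6% for PD03 against control and 46.5% instead of 60.4% for PD03 against thrombin. Of 8 genes downstream of MEK (among them Dusp6 and Spry4), 8 were called lower for PD03 against thrombin, and they summed to 94.9 to 107 CPM in the PD03 and 432 to 595 CPM in the thrombin libraries. Against the control group 8 of them were called lower with PD03. With thrombin 1 was called higher and none lower, but their median log2 fold change was -0.28. The control libraries summed to 536 to 644 CPM.

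All 9 factors were present in every library, and Prrx1, Twist2 and Prrx2 led them per length in each group. In the control group mean FPKM was 228 for Prrx1, 133 for Twist2, 122 for Prrx2, 31.8 for Foxc1, 30.1 for Twist1, 28.8 for Msx2, 12.9 for Alx4, 10.2 for Msx1 and 8.76 for Six2. Of neighbours in this order, the libraries of Foxc1 and Twist1 overlapped, as did those of Twist1 and Msx2, and the others did not. In the thrombin group Msx2 at 46.9 FPKM stood above Twist1 at 38.6 and Foxc1 at 24.8, and no neighbours overlapped. In the PD03 group Foxc1 at 34.4 FPKM and Twist1 at 32.3 overlapped and stood above Msx2 at 23.2, and Alx4 at 12.4 overlapped with Msx1 at 11.3. The order of Foxc1, Twist1 and Msx2 was thus the same in the control and PD03 groups, with overlaps, and reversed in the thrombin group. Prrx2 stood above Twist2 in both thrombin-treated groups, at 161 against 144 FPKM with thrombin alone and 166 against 108 FPKM with PD03, and below it in the control group. Prrx1, Prrx2 and Twist2 together held 79.3% to 81.0% of the summed FPKM of the 9 factors in each library. That sum was 600.4 to 607 FPKM in the control libraries, 711 to 719 in the thrombin libraries and 624 to 638 in the PD03 libraries, with no overlap between groups. FPKM rests on library totals and not on TMM, so the distance between the control and PD03 sums depends on the scaling. Prrx1, for example, had means of 228 and 235 FPKM in the control and PD03 groups, but 719 and 804 CPM with TMM. The lengths that the FPKM values imply ran from 1349 bases for Twist2 to 10166 for Six2, which is longer than the 6464 bases that Six2 spans in RefSeq, and a longer model gives a lower FPKM. The model of Twist1, 2479 bases, also exceeded its RefSeq span of 1995 bases.

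Other positional genes were read to place the 9 factors. Of 44 further craniofacial factors, 41 were in the table, 33 were tested and 25 had a mean FPKM of at least 1 over the 9 libraries. The highest were Snai1, a regulator of mesenchymal transition, at 85.1 FPKM, En1, a regulator of calvarial bone, at 75.8 FPKM and Zic1, a factor of dorsal head mesenchyme, at 38.4 FPKM. Of 20 Hox genes in the table, 4 reached a mean of 1 FPKM, and the highest were Hoxa2 at 3.92, Hoxd8 at 2.43 and Hoxb2 at 1.36. Of Hox groups 9 to 13, those of posterior trunk and limb, the table held only 4 genes, Hoxa11, Hoxc9, Hoxc10 and Hoxd9. They had at most 0.424 FPKM and at most 18 counts in any library. Other Hox genes of these groups had no entry under their symbols, and why was not tested. The limb genes Tbx4 and Pitx1 had 0.118 and 0.008 FPKM, with 2 to 14 and 0 to 3 counts per library. Tbx5 had no entry under its symbol in the table. Tbx4 and Pitx1 summed to 0.119 to 0.884 CPM, while the factors shared by skull and limb were all well covered by reads. Of the 41 craniofacial factors in the table, 16 also had a mean under 1 FPKM. The origin of the cells was not tested by these levels.

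**Figure D1:**
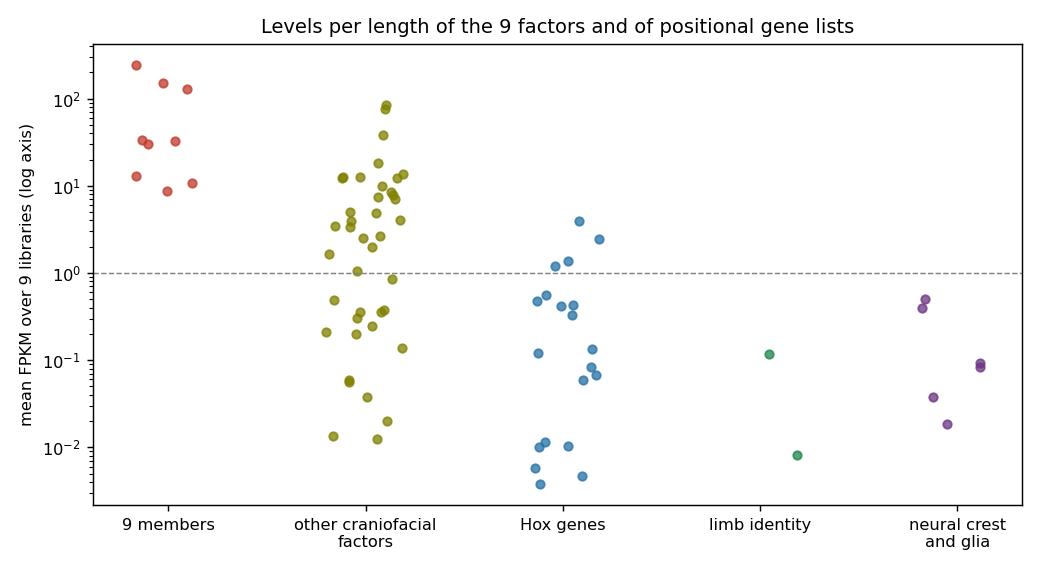
Mean FPKM over 9 libraries on a log axis, 1 point per gene, for the 9 factors, other craniofacial factors, Hox genes, limb identity genes and genes of neural crest and glia; the dashed line is 1 FPKM. The 9 factors all lie above 8 FPKM. Under 1 FPKM lie 16 of 41 other craniofacial factors, 16 of 20 Hox genes and all limb identity and neural crest genes.

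Of the osteoblast genes, the collagen gene Col1a1 had a mean of 9220 FPKM, Spp1 64.9, the master regulator Runx2 6.56 and Sp7 1.56. Alpl, an early marker, had only 6 to 62 counts per library, and the later markers were near 0, with 1 to 5 counts for Bglap, 0 to 1 for Ibsp, 0 to 4 for Dmp1 and 3 to 18 for Phex. Thrombin against control called Spp1 higher (1.54 on the log2 scale) and Alpl lower (-2.24). PD03 against thrombin called Alpl (3.14) and Col1a1 (0.75) higher and Spp1 (-1.80) and Runx2 (-0.67) lower, and PD03 against control called Alpl (0.90) and Col1a1 (0.60) higher. The 6 genes of neural crest and glia all had a mean under 1 FPKM, Sox10 among them with 0 to 13 counts, a summed level of 2.14 to 5.12 CPM and no call. Markers of other cells were low for myeloid cells (1.58 to 3.11 CPM summed, Ptprc 0 to 6 counts, 1 gene higher with PD03 than in the control), keratinocytes (2.52 to 3.28 CPM, Krt5 0 to 3 counts, none called) and muscle (5.87 to 9.22 CPM, Myog 0 to 3 counts, 1 gene higher with PD03 in each of its comparisons). The largest counts within these lists were those of Csf1r (5 to 26), Krt10 (37 to 56) and Des (91 to 158). Endothelial markers summed to 6.69 to 7.77 CPM in the control, 6.36 to 8.51 CPM in the thrombin and 11.1 to 12.6 CPM in the PD03 libraries. Pecam1 had 1 to 8 counts, Tie1 0 to 1, and Tek 100 to 172 with a mean of 1.57 FPKM. PD03 called 2 endothelial genes higher against thrombin, Kdr and Tek, and 1 against control, Kdr. Chondrocyte genes summed to 90.5 to 101 CPM in the control, 66.3 to 71.8 CPM in the thrombin and 77.7 to 85.0 CPM in the PD03 libraries. Most of this sum was Col2a1, at 84.4, 49.2 and 56.4 CPM, with 783 to 1448 counts and a mean of 13.4 FPKM. With thrombin Acan (1.29, 7 to 33 counts) and Sox9 (0.89) were called higher and Col2a1 (-0.78) lower, against the fall of the sum. PD03 against thrombin called Col9a1 (0.98) higher. PD03 against control called Sox9 (1.08), Acan (1.02) and Col9a1 (0.87) higher and Col2a1 (-0.582) lower. Of all tested genes 8.06%, 15.9% and 8.97% were called in these comparisons.

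Only Msx2 among the 9 passed both thresholds, an adjusted p under 0.05 from edgeR's quasi-likelihood test and an absolute log2 fold change above 0.58. For thrombin against control, a comparison of the response to thrombin, 1 of 9 was called, higher, where 8.06% of all tested genes were called (2.62% higher and 5.44% lower). For PD03 against thrombin, which asks what MEK inhibition does to thrombin-treated cells, 1 of 9 was called, lower, where 15.9% of all genes were called (9.61% higher and 6.31% lower). For PD03 against control 0 of 9 were called, where 8.97% of all genes were (4.90% higher and 4.07% lower), and all 9 factors had log2 fold changes between -0.20 and 0.56 there. On the adjusted p alone, 5 were higher and 1 lower with thrombin than in the control, where 28.7% of all genes passed (14.1% higher and 14.6% lower). PD03 against thrombin had 2 higher and 4 lower (49.8% of all genes, 25.3% higher and 24.5% lower), and PD03 against control had 5 higher and 2 lower (39.9%, 19.7% higher and 20.2% lower). These shares of the 9 carry no test. Libraries of the compared groups did not overlap for 6 factors (40.3% of all genes), 6 factors (55.5%) and 7 factors (47.8%). The median log2 fold change of the 9 was 0.13 for thrombin against control, -0.03 for PD03 against thrombin and 0.16 for PD03 against control, where that of all tested genes was -0.0060, 0.011 and -0.0039. The comparisons share libraries and are not independent of each other. In these bulk libraries fewer cells making a factor and less of its RNA per cell cannot be told apart.

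**Figure D2:**
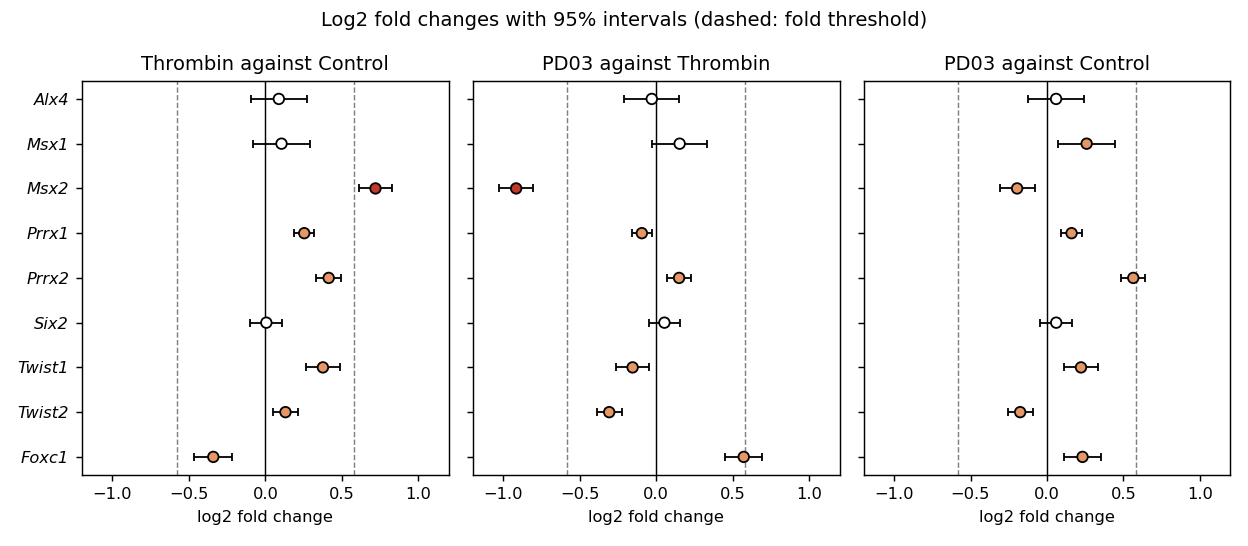
Log2 fold change of each of the 9 factors in 3 comparisons with its 95% interval (edgeR, 3 libraries a group); dashed lines mark the fold threshold of 0.58, dark red points passed both thresholds, orange points passed the adjusted p alone and open points passed neither. Msx2 lies beyond the dashed lines at 0.72 and -0.92 in the first and second panels and at -0.20 in the last.

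Msx2 (ENSRNOG00000018355), a transcriptional repressor of skull progenitors, rose with thrombin and fell with PD03. It stood at 55.8, 56.7 and 62.6 CPM in the control libraries, 99.4, 94.3 and 94.5 CPM in the thrombin libraries and 50.9, 50.8 and 51.1 CPM in the PD03 libraries. All thrombin libraries were above every other library, and all PD03 libraries were below the control libraries. The group means were 58.3 ± 3.71, 96.1 ± 2.88 and 50.9 ± 0.177 CPM (SD, n = 3). With thrombin Msx2 rose 1.65-fold, or 0.72 on the log2 scale (standard error 0.05, 95% interval 0.61 to 0.83, edgeR adjusted p = 1.0e-14). With PD03 it fell by 0.92 on the log2 scale against thrombin (standard error 0.05, edgeR adjusted p = 3.3e-18), to 0.530 of the thrombin level. Against control, Msx2 in the PD03 group had a log2 fold change of -0.20, below the fold threshold (edgeR adjusted p = 0.0048, and 0.059 without control library 3), and of -0.31 with library totals (adjusted p = 1.4e-05). The cell cycle genes had the same order of groups as Msx2, and their part in its values was not tested. Their 8 members summed to 923 to 938 CPM in the control, 1059 to 1088 CPM in the thrombin and 674 to 700 CPM in the PD03 libraries, and 6 of 8 were called lower for PD03 against thrombin with none called in the other comparisons.

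Msx1 (ENSRNOG00000068566), the relative of Msx2 with a similar homeodomain, passed neither threshold with thrombin. It had 18.2, 17.0 and 17.7 CPM in the control, 16.8, 19.8 and 20.2 CPM in the thrombin and 22.7, 21.1 and 19.4 CPM in the PD03 libraries. The thrombin libraries overlapped both other groups, and the PD03 libraries were above the control libraries. Its log2 fold change was 0.11 with thrombin (95% interval -0.08 to 0.29, edgeR adjusted p = 0.44) and 0.15 for PD03 against thrombin (-0.03 to 0.34, adjusted p = 0.16). For PD03 against control it was 0.26 (adjusted p = 0.020), below the fold threshold, with an adjusted p between 0.050 and 0.12 when any of 4 libraries was left out (control 2 or 3, PD03 1 or 2) and of 0.21 with library totals. The share of Msx2 in the FPKM of the pair was 73.8 ± 1.39% in the control, 81.2 ± 1.93% in the thrombin and 67.3 ± 1.77% in the PD03 group (SD, n = 3). The 3 groups did not overlap, so the pair was least even with thrombin and most even with PD03.

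Foxc1 (ENSRNOG00000070919), needed for normal skull bone and meninges, was lower with thrombin and higher with PD03. Its libraries stood at 51.6, 52.9 and 49.3 CPM in the control, 42.5, 40.9 and 38.1 CPM in the thrombin and 62.7, 59.7 and 58.2 CPM in the PD03 group. No group overlapped another, and the order of the groups was the reverse of that of Msx2. With thrombin Foxc1 had a log2 fold change of -0.34 (standard error 0.06, edgeR adjusted p = 2.1e-05), below the fold threshold. For PD03 against thrombin it was 0.57 (95% interval 0.45 to 0.69, edgeR adjusted p = 7.9e-11), just under that threshold, and it reached 0.60 and was called without thrombin library 1 or without PD03 library 3. For PD03 against control it was 0.23 (adjusted p = 0.0013, and 0.11 with library totals). Of its relatives, Foxc2, picked after its values were seen, rose with thrombin by 0.64 on the log2 scale and had -0.30 for PD03 against thrombin, signs opposite to those of Foxc1.

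Twist1 (ENSRNOG00000011101), whose loss of 1 copy closes cranial sutures early, was higher with thrombin. It stood at 72.6, 72.6 and 71.9 CPM in the control, 95.6, 93.3 and 92.9 CPM in the thrombin and 92.9, 81.9 and 78.1 CPM in the PD03 libraries. The control libraries were below all others, and the first PD03 library lay next to the lowest thrombin library. Twist1 had log2 fold changes of 0.38 with thrombin (standard error 0.05, edgeR adjusted p = 3.1e-07), -0.15 for PD03 against thrombin (adjusted p = 0.014) and 0.22 for PD03 against control (adjusted p = 8.7e-04, and 0.11 with library totals), all below the fold threshold. For PD03 against thrombin, Twist1 had -0.25 with library totals (adjusted p = 1.0e-04), -0.23 without PD03 library 1 (adjusted p = 1.7e-04) and -0.10 without PD03 library 3 (adjusted p = 0.15). Twist2 (ENSRNOG00000020355), its dermal and skeletal relative, was instead lowest with PD03. It had 168, 172 and 181 CPM in the control, 191, 194 and 186 CPM in the thrombin and 155, 153 and 154 CPM in the PD03 libraries, with no overlap between groups. Its log2 fold changes were 0.13 with thrombin (adjusted p = 0.011, and 0.070 without the first control library or 0.052 without the second thrombin library), -0.31 for PD03 against thrombin (standard error 0.04, adjusted p = 2.4e-08) and -0.18 for PD03 against control (edgeR adjusted p = 5.3e-04, and a value of -0.29 with library totals). Twist2 made up 81.5 ± 0.648% of the FPKM of the pair in the control, 78.8 ± 0.336% in the thrombin and 77.1 ± 1.50% in the PD03 group (SD, n = 3). The libraries of the 3 groups did not overlap in this share.

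**Figure D3:**
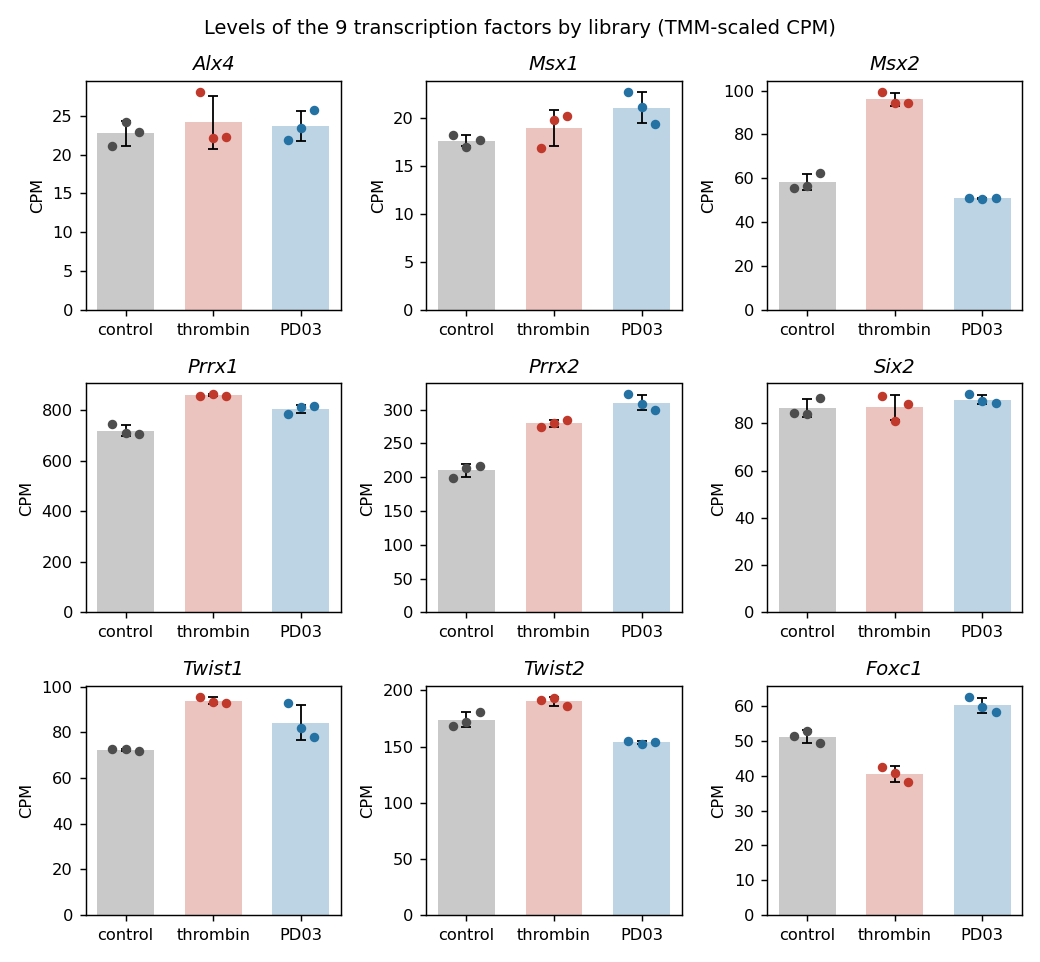
CPM after TMM scaling of each of the 9 factors in the control, thrombin and PD03 groups; bars are means from 0, error bars are SD and points are the 3 libraries of a group. Msx2 is highest with thrombin (94.3 to 99.4 CPM), Foxc1 is lowest there (38.1 to 42.5 CPM), and the points of Alx4 and Six2 overlap across all groups.

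Prrx1 (ENSRNOG00000003720), a marker of skeletal progenitors, was the highest of the 9 factors. Its libraries had 743, 709 and 704 CPM in the control, 854, 862 and 857 CPM in the thrombin and 784, 812 and 815 CPM in the PD03 group. The PD03 libraries lay between the other groups with no overlap. Prrx1 had log2 fold changes of 0.25 with thrombin (standard error 0.03, edgeR adjusted p = 2.8e-08), -0.09 for PD03 against thrombin (adjusted p = 0.015, and a value of -0.19 with library totals) and 0.16 for PD03 against control (adjusted p = 8.6e-05, and 0.27 with library totals). All were below the fold threshold. In RefSeq 2 other genes overlap the 68597-base span of Prrx1, whose counted model has 3256 bases. Whether they share counted bases with Prrx1 was not tested, and no source used here states that strand was counted. Prrx2 (ENSRNOG00000058329), which acts with Prrx1 in the jaw and limb, was higher in both thrombin-treated groups. It stood at 199.5, 214 and 216 CPM in the control, 275, 279 and 285 CPM in the thrombin and 322, 309 and 299.8 CPM in the PD03 libraries. No group overlapped another, and the PD03 group was the highest, unlike for Prrx1. Prrx2 had log2 fold changes of 0.41 with thrombin (standard error 0.04, edgeR adjusted p = 1.6e-11) and 0.56 for PD03 against control (95% interval 0.48 to 0.64, adjusted p = 1.3e-15), which reached 0.59 and was called without PD03 library 3. For PD03 against thrombin it was 0.15 (adjusted p = 0.0012) and 0.05 with library totals (adjusted p = 0.26). The share of Prrx2 in the FPKM of the pair was 34.9 ± 1.67% in the control, 37.5 ± 0.403% in the thrombin and 41.5 ± 1.40% in the PD03 group (SD, n = 3), with no overlap between groups.

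**Figure D4:**
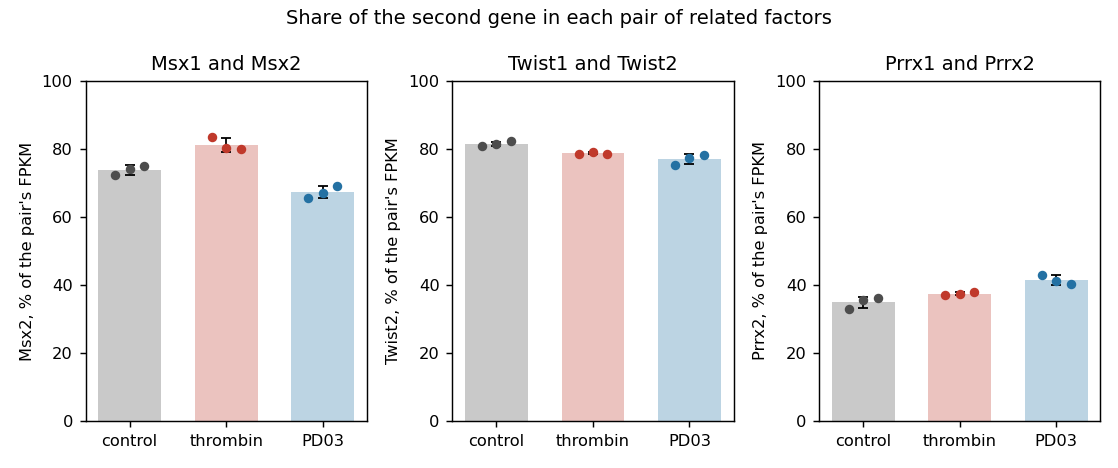
Share of Msx2, Twist2 and Prrx2 in the summed FPKM of each gene and its closest relative, in percent; bars are group means from 0, error bars are SD and points are the 3 libraries of a group. The share of Msx2 is highest with thrombin (81.2%) and lowest with PD03 (67.3%), while that of Prrx2 is highest with PD03 (41.5%).

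Alx4 (ENSRNOG00000000008), whose loss leaves openings in the parietal bones, and Six2 (ENSRNOG00000068029) passed no test in any comparison. Alx4 had 21.0, 24.2 and 22.9 CPM in the control, 28.1, 22.1 and 22.3 CPM in the thrombin and 21.9, 23.4 and 25.8 CPM in the PD03 libraries. The first thrombin library was the highest of all and the groups overlapped. Its log2 fold change was 0.09 with thrombin (95% interval -0.09 to 0.27), -0.03 for PD03 against thrombin (-0.21 to 0.15) and 0.06 for PD03 against control (-0.12 to 0.24). Six2 had 84.4, 84.0 and 90.7 CPM in the control, 91.4, 81.0 and 88.0 CPM in the thrombin and 92.2, 89.4 and 88.4 CPM in the PD03 libraries, again with overlap between all groups. Its log2 fold change was 0.01 with thrombin (-0.10 to 0.11), 0.05 for PD03 against thrombin (-0.05 to 0.16) and 0.06 for PD03 against control (-0.04 to 0.16). All 6 of these intervals lie inside the fold threshold.

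Of the 33 tested craniofacial factors beside the 9, thrombin against control called 2 higher and 6 lower, with a median log2 fold change of -0.0037. All tested genes had 2.62% called higher and 5.44% lower there. PD03 against thrombin called 3 higher and 2 lower (median 0.07), where 9.61% of all genes were called higher and 6.31% lower. PD03 against control called none higher and 3 lower (median -0.03), where 4.90% of all genes were called higher and 4.07% lower. These counts of the list carry no test. Lhx6, a LIM homeodomain factor of the jaw and teeth, had the largest rise with thrombin, 1.08 on the log2 scale, and the largest fall with PD03. Its mean level was 3.49 ± 0.589 CPM in the control, 7.37 ± 0.931 CPM in the thrombin and 0.912 ± 0.0621 CPM in the PD03 group (SD, n = 3). The log2 fold change of Lhx6 was -3.01 for PD03 against thrombin and -1.93 for PD03 against control. Dlx4, a homeodomain factor with only 1 to 17 counts per library, had the largest fall with thrombin (-1.74) and the largest rise for PD03 against thrombin (1.54). Other relatives of the 9, picked after their values were seen, were not called: Alx1 had 0.22 with thrombin and 0.29 for PD03 against thrombin, and Six4 had -0.01 and -0.16.

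Of 11 partner proteins of the 9 factors, 10 were tested and none was called for thrombin against control (median log2 fold change 0.05). PD03 against thrombin called Eya1, a cofactor of Six2 and its relatives, higher (0.59, median -0.05), and PD03 against control called Dach1, a corepressor in the same network, higher (1.14, from 6 to 37 counts per library, median 0.07). Of 8 readouts of BMP signalling, a pathway that acts on Msx1 and Msx2, none was called for thrombin against control (median -0.01). PD03 against thrombin called 3 higher and none lower (median 0.29), with the largest rise in Bambi, a decoy receptor, at 0.90. PD03 against control called Bambi alone, at 0.70 (median 0.37). The BMP readouts did not move as one beside Msx2. Smad7, a feedback inhibitor chosen after its values were seen, was highest with thrombin, as Msx2 was. Its log2 fold change was 0.43 with thrombin (edgeR adjusted p = 1.6e-06) and -0.46 for PD03 against thrombin (adjusted p = 1.9e-07), both below the fold threshold. For PD03 against control Smad7 had -0.03 (edgeR adjusted p = 0.79), so its control and PD03 groups were not ordered. Smad6 and Id3, chosen likewise, had 0.46 and 0.35 with thrombin, below the fold threshold, and -0.15 and 0.02 for PD03 against thrombin. Of the remaining readouts, Id1 had 0.15 with thrombin, while Atoh8, Bambi, Smad9 and Id2 had -0.41, -0.19, -0.19 and -0.18. Of the 10 tested Hox genes none was called in any comparison by edgeR. Over all tested genes, 8.06% were called for thrombin against control, 15.9% for PD03 against thrombin and 8.97% for PD03 against control. The counts of the partner, BMP and Hox lists carry no test beside these shares.

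The profile over the 9 libraries most like that of Msx2, among 13247 other tested genes, was that of a gene without a symbol (ENSRNOG00000062648), followed by Rnf122, a ubiquitin ligase. Likeness was the root mean square difference of log2 CPM, each gene centred on its own mean, and it was 0.063 for the first and 0.070 for the second. Rnf122 had 19.9, 33.6 and 17.7 CPM as group means of control, thrombin and PD03, and ENSRNOG00000062648 had 101, 164 and 90.1 CPM.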

How the data were processed

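Per the labels and the study's methods, polyA RNA was made into NEBNext Ultra libraries. The authors trimmed reads with fastp, aligned them with HISAT2 and counted them per gene. The methods name featureCounts and Rnor_6.0, whereas the submitters' processing notes name HTSeq 0.13.5 and mRatBN7.2. The annotation release and the strand setting were not given in the sources used here. Raw counts for each gene and library were deposited by the authors, and replicates were not pooled. The authors also deposited FPKM values, each equal to the count divided by library total and a fixed gene length.

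The counts were analysed with edgeR 4.0.16 in R 4.3.3, and DESeq2 1.42.0 and limma 3.58.1 served as alternatives. Plots used matplotlib 3.10.9 under Python 3.11.15. filterByExpr (minimum count 10) selected the genes, TMM set the scaling, and a single quasi-likelihood fit of edgeR held the 9 libraries, adjusted by Benjamini-Hochberg over 13256 genes. A gene was called with adjusted p under 0.05 and absolute log2 fold change above 0.58. The biological coefficient of variation was 4.28%. Libraries of a group were not duplicates, with a chi-square of 1.81 to 3.88 for each degree of freedom between pairs. Scripts were tested on simulated data. Alternatives covered scaling, filter, test, thresholds, FPKM, the replicate block and libraries left out.

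The 9 factors and the lists (craniofacial factors, partners, BMP readouts, Hox genes and cell type markers) were chosen with earlier results of these data known. From the craniofacial, partner and BMP lists the text names the called genes with the largest rise and fall in each comparison, with the highest craniofacial and Hox genes. Marker lists are given by counts and summed levels, with defining markers named. For myeloid, keratinocyte, muscle, endothelial and chondrocyte markers the gene with the largest count is also named, and so are all chondrocyte calls. For a called factor it names the 2 genes with the most similar profile. A few relatives, BMP readouts and osteoblast calls were picked after their values were seen.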

Additional observations from a re-analysis of the deposited data

How the results depend on the processing

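Of 621 alternative values for single factors, 578 kept their direction and their side of the call, 20 passed the call anew, 2 lost it and 21 changed sign. The 2 lost were those of Msx2 with a log2 fold change above 1 required. Settings that changed only the threshold (none, above 1, or glmTreat) reuse the main log2 fold changes, so no sign could change there. In the order thrombin against control, then PD03 against thrombin, then PD03 against control, the factors called were 6, 6 and 7 with no fold threshold, and 0, 0 and 0 with a log2 fold change above 1 required. With 1 library left out they were 1 to 1, 1 to 2 and 0 to 1. Genes called numbered 1068, 2110 and 1189 in these comparisons, 3808, 6608 and 5289 with no fold threshold, 505, 935 and 519 above a log2 fold change of 1, 460, 1051 and 499 with glmTreat, and 543, 1254 and 676 with limma on FPKM with 1 added. All changes of sign were in Alx4 and Six2, whose log2 fold changes lay near 0. With library totals, FPKM with 1 added and FPKM with 0.1 added, Six2 had -0.011, -0.0100 and -0.011 in the first comparison, -0.045, -0.040 and -0.044 in the second, and -0.056, -0.050 and -0.055 in the last, and Alx4 had -0.056, -0.053 and -0.057 in the last. With 1 library left out, Six2 lay between -0.028 and 0.058 in the first comparison and between -0.0052 and 0.081 in the second, and Alx4 lay between -0.028 and 0.15, between -0.10 and 0.080, and between -0.0046 and 0.12. The cause was not tested.

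The replicate numbers are only names shared across groups. Deviations of same-numbered libraries correlated between -0.042 and 0.083, and a library correlated best with its own number in 6 of 18 cases. With the replicate number as a block, 1, 1 and 0 factors and 1067, 2103 and 1187 genes were called.

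With library totals, as with FPKM, Prrx2 for PD03 against thrombin and Msx1, Prrx1, Twist1 and Foxc1 for PD03 against control no longer had an adjusted p under 0.05 in edgeR or limma. In the other direction, library totals took Prrx1 and Twist1 for PD03 against thrombin to -0.19 and -0.25, and Msx2 and Twist2 for PD03 against control to -0.31 and -0.29, each over 1.5 times the TMM value. Low counts limit Dlx4, Dach1 and the marker genes near 0, while the 9 factors had at least 269 counts in each library.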
